A study of Mus musculus with 14 samples.

Results

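The genes described here are the usual transcriptional readouts of bone morphogenetic protein (BMP) signalling, together with the brakes that this signalling places on itself: Id1, Id2, Id3, Id4, Smad6, Smad7, Smad9, Bambi, Msx1 and Msx2. They were taken by gene symbol, by a rule that uses no measured value, though with earlier results of these data known. All 10 were found among the 55291 symbols of the mouse count table, and all 10 passed the filter on low counts that left 20562 genes for testing. The study used small molecules to convert mouse fibroblasts into cells that resemble retinal pigment epithelium (RPE), the pigmented layer behind the photoreceptors, and RNA was sequenced in 14 libraries. The groups were cells on day 7 (D7) and day 18 (D18) of a first medium, cells on day 32 (D32) in a second medium, primary RPE (P-RPE) and the starting embryonic fibroblasts (MEF), with n = 3 each and n = 2 for P-RPE.

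All 14 libraries were labelled C57BL/6J, and the labels give E13.5 embryos (the embryonic day) as the source of each. The first medium held bFGF, CHIR-99021 (an inhibitor of GSK3), LDN193189 (an inhibitor of BMP type I receptors), A 83-01 (an inhibitor of the TGF-beta and activin type I receptors), Hh-Ag1.5 (a Hedgehog pathway agonist), RG108 (an inhibitor of DNA methyltransferases), BMS-345541 (an inhibitor of IKK) and CKI-7 (an inhibitor of casein kinase 1). Activin A, retinoic acid, nicotinamide and Y27632 (an inhibitor of the kinase ROCK) made up the additions to the second medium, and the labels name neither LDN193189 nor A 83-01 in it. The agents of a medium were given together, and day and medium changed together between D18 and D32, so their parts in any difference cannot be told apart. The labels list the first medium as the treatment of the MEF libraries and an embryonic tissue for P-RPE, and the groups were therefore formed from the sample titles. Cells with the appearance of successful induction were picked by scraping, so the treated libraries hold selected cells. Nothing in the labels says whether replicates came from separate cultures or animals, and p-values measure only the spread between these samples, which may be technical.

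A BMP ligand joins type I and type II receptors at the cell surface, and the type I receptor phosphorylates Smad1, Smad5 and Smad9, which enter the nucleus with Smad4. The Id genes are among the most direct targets: their proteins lack a DNA-binding region, pair with bHLH transcription factors and hold back differentiation. Smad6 and Smad7 encode inhibitory Smads that close a negative feedback loop, Smad6 mainly on BMP receptors and Smad7 on both BMP and TGF-beta receptors. Bambi is a decoy receptor without a kinase domain, and Msx1 and Msx2 are homeobox repressors induced by BMP in the dorsal neural tube, limb and skull. In the embryonic eye, BMP signalling takes part in specifying the RPE.

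On GRCm38 (GENCODE vM21) all 10 are protein-coding genes. Id1 lies on chromosome 2 (152736251 to 152737410), Id2 on chromosome 12, Id3 on chromosome 4 and Id4 on chromosome 13. Smad6 lies on chromosome 9 (63953076 to 64022059), Smad9 on chromosome 3 (54755582 to 54801257), Msx1 on chromosome 5 and Msx2 on chromosome 13. Promoter windows of RefSeq (GRCm38.p6), from 250 bases before to 50 bases after the start of transcription, matched 7 of the 10: Id2, Id3, Id4, Smad6, Smad9, Msx1 and Msx2. Printed below are 2 pairs whose levels moved together over the libraries, Smad6 with Smad9, which fell together at D7, and Id4 with Msx1, which peaked together at D18. Capitals mark GGCGCC, a GC-rich element bound by BMP Smads, and GTCTAGAC, the palindromic Smad-binding element.
Smad6 (chr9:64022010-64022309, minus strand): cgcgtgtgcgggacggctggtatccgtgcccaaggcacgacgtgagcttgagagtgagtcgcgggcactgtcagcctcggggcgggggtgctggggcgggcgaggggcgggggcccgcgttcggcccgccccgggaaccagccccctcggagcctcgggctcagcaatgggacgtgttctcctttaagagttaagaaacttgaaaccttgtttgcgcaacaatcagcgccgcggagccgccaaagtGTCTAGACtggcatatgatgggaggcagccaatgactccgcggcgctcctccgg
Smad9 (chr3:54755332-54755631, plus strand): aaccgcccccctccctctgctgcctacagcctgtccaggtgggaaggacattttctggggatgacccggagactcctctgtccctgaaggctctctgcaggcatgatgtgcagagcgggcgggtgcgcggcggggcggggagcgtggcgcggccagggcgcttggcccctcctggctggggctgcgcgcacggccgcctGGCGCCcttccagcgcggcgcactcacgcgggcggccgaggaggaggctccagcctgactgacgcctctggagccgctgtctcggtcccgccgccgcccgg
Id4 (chr13:48260866-48261165, plus strand): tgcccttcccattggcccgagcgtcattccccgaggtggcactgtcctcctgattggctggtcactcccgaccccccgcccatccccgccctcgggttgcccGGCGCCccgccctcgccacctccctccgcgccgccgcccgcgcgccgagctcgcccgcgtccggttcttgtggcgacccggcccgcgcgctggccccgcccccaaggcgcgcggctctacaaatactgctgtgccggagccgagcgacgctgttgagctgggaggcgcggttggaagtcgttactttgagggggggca
Msx1 (chr5:37824536-37824835, minus strand): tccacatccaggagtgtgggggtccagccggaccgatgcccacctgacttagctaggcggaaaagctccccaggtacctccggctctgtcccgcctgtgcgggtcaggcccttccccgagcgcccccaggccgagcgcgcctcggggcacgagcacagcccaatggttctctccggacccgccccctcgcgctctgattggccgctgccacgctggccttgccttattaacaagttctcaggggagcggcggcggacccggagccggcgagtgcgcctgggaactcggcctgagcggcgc

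The windows were searched on both strands for the capitalised pair, for the short Smad-binding element CAGAC and for a second GC-rich element bound by BMP Smads, GGAGCC. None of the 4 contains another. GTCTAGAC was held by 1 of the 7 windows, that of Smad6, where it begins at position -4 from the start. Of all 32851 RefSeq promoter windows of this length, 70 (0.213%) held it. GGCGCC was held by 3 of the 7, at -51 in Smad9, -148 in Id4 and -231 in Id2, and by 11.9% of all windows. The short element was held by 1 of the 7 (Id3) and by 49.6% of all windows. The second GC-rich element was held by all 7 and by 30.8% of all windows. The Msx1 window held neither capitalised motif. A match describes letters in a window and is not a measured binding site.

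Library totals ran from 32352405 to 41390196 counts, and 1 count was worth 0.0227 to 0.0305 CPM. CPM, the count of a gene scaled to a common library size, was taken on TMM-adjusted totals, and all tests are edgeR quasi-likelihood tests of 1 model of the 14 libraries, with Benjamini-Hochberg adjustment over all genes tested and a call at an adjusted p under 0.05. The biological coefficient of variation was 0.0408 in MEF and between 0.158 and 0.2502 in the other groups. RPE markers (10 genes) summed to 4554 to 8748 CPM at D32 against 59709 to 66857 CPM in P-RPE, all 10 with counts in both groups. The 6 fibroblast markers still summed to 6675 to 10531 CPM at D32. P-RPE also held markers of endothelium (644 to 753 CPM), macrophages (1002 to 1045 CPM), red cells (974 to 1779 CPM) and rods (848 to 2392 CPM), all with counts. D32 held them too, at lower sums: endothelium 170 to 223 CPM, macrophages 112 to 194 CPM, red cells 102 to 204 CPM and rods 5.91 to 47.7 CPM. Their part in P-RPE and D32 values was not tested.

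**Figure D1:**
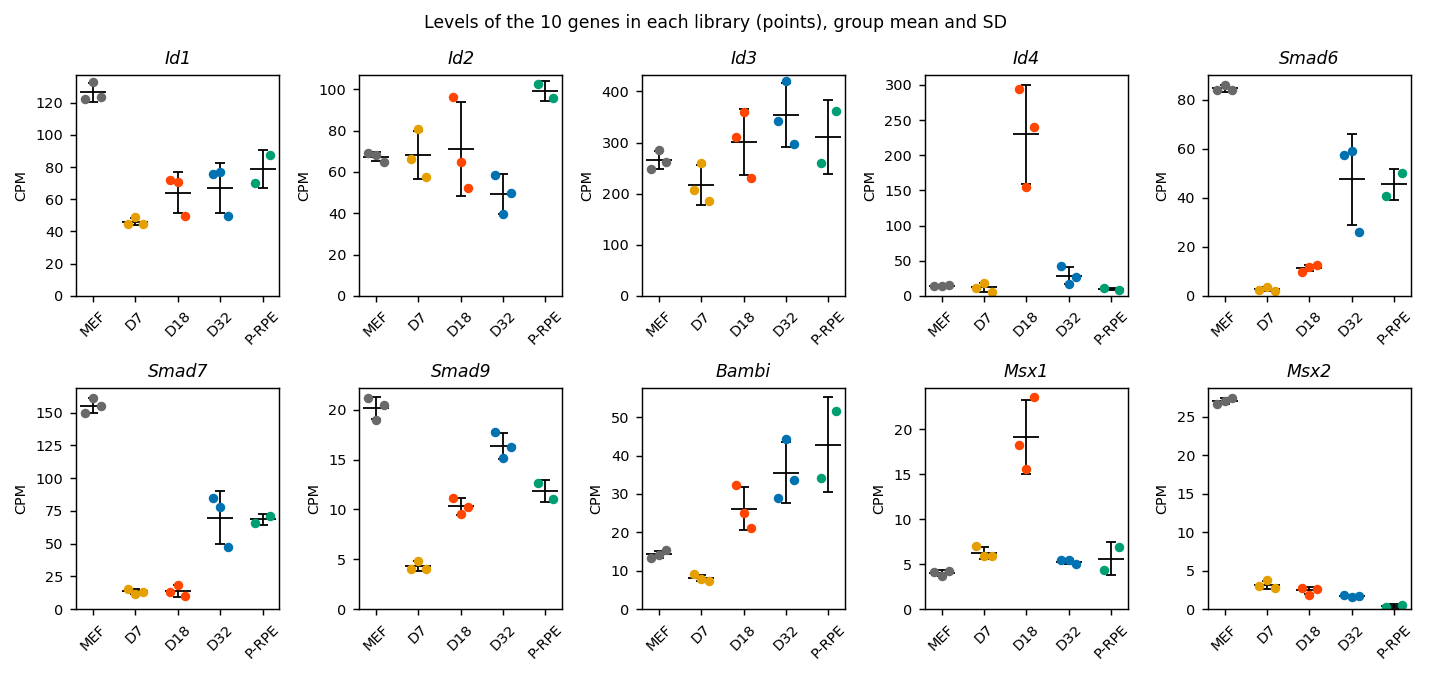
CPM of each of the 10 genes (linear vertical axes) in the MEF, D7, D18, D32 and P-RPE libraries. Points are libraries, and lines with bars are the group mean and SD (n = 3, P-RPE n = 2). Smad6 and Smad9 are lowest at D7, Id4 and Msx1 are highest at D18, and Msx2 is above 4 CPM in MEF alone.

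The first comparison set cells on day 7 of the first medium, which held a BMP receptor inhibitor among other agents, against MEF. The intracellular brakes on BMP signalling fell most, and the Id genes divided: Id1 fell while Id2, Id3 and Id4 did not pass the test. Of the 10 genes, 6 fell and 1 rose at D7 against MEF, while 55.0% of all genes tested were called, 28.5% higher and 26.5% lower. Their median log2 change was -1.14, beside 0.04 for all genes tested. The libraries of the 2 groups did not overlap for 7 of the 10 genes, and for 67.8% of all genes. In bulk RNA, fewer cells expressing a gene and less RNA per cell cannot be told apart.

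Smad6 had 2.50, 3.54 and 1.98 CPM in the D7 libraries, against 83.8, 86.1 and 84.0 CPM in the MEF libraries. Every D7 library was far below every MEF library, and the mean was 31.7-fold lower (log2 change -4.98, SE 0.30, adjusted p = 8.02e-09). Smad7, on chromosome 18 like Bambi, had 15.6, 11.5 and 13.4 CPM at D7, against 150.1, 161 and 155 CPM in MEF. Again the groups were wide apart, with a mean 11.5-fold lower at D7 (adjusted p = 2.47e-08). Smad9, the least abundant of the Smads that carry the BMP signal, had 4.05, 4.86 and 4.00 CPM at D7, against 21.2, 19.0 and 20.5 CPM in MEF (log2 change -2.23, SE 0.14, adjusted p = 5.87e-09). Bambi fell less, to 9.05, 7.95 and 7.32 CPM at D7, against 13.4, 14.2 and 15.3 CPM in MEF (log2 change -0.82, SE 0.20, adjusted p = 0.00244).

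Both homeobox genes were called, in opposite directions. Msx2 had 2.99, 3.73 and 2.78 CPM at D7, against 26.6, 27.0 and 27.4 CPM in MEF, a mean 8.53-fold lower (adjusted p = 3.97e-08). Msx1 was a gene of low level that rose, with 7.01, 5.91 and 5.89 CPM at D7, against 4.08, 3.65 and 4.25 CPM in MEF. Its log2 change of 0.65 (SE 0.20, adjusted p = 0.0133) lost its call without MEF replicate 2 (adjusted p = 0.0536) or without D7 replicate 1 (adjusted p = 0.0684).

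Among the Id genes, Id1 had 44.8, 48.7 and 44.7 CPM at D7, against 122, 133 and 124 CPM in MEF. The D7 libraries lay within 4 CPM of each other and all below the MEF libraries (log2 change -1.46, SE 0.17, adjusted p = 3.57e-06). Id3, the most abundant of the 4, had 207, 259.9 and 185 CPM at D7, against 249.1, 286 and 263 CPM in MEF, with overlapping libraries (log2 change -0.29, adjusted p = 0.191). Id2 averaged 68.0 ± 11.7 CPM at D7 and 67.4 ± 2.35 CPM in MEF (SD, n = 3 each), a log2 change of 0.01 with a 95% interval of -0.41 to 0.43. Id4 averaged 12.105 ± 6.20 CPM at D7 and 14.4 ± 0.497 CPM in MEF (SD, n = 3 each; log2 change -0.25, adjusted p = 0.606). The sign of these 3 small changes was not stable under other scalings: Id3 and Id4 came out at 0.03 and 0.07 with library totals alone, and Id2 at -0.03 with median-ratio size factors.

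**Figure D2:**
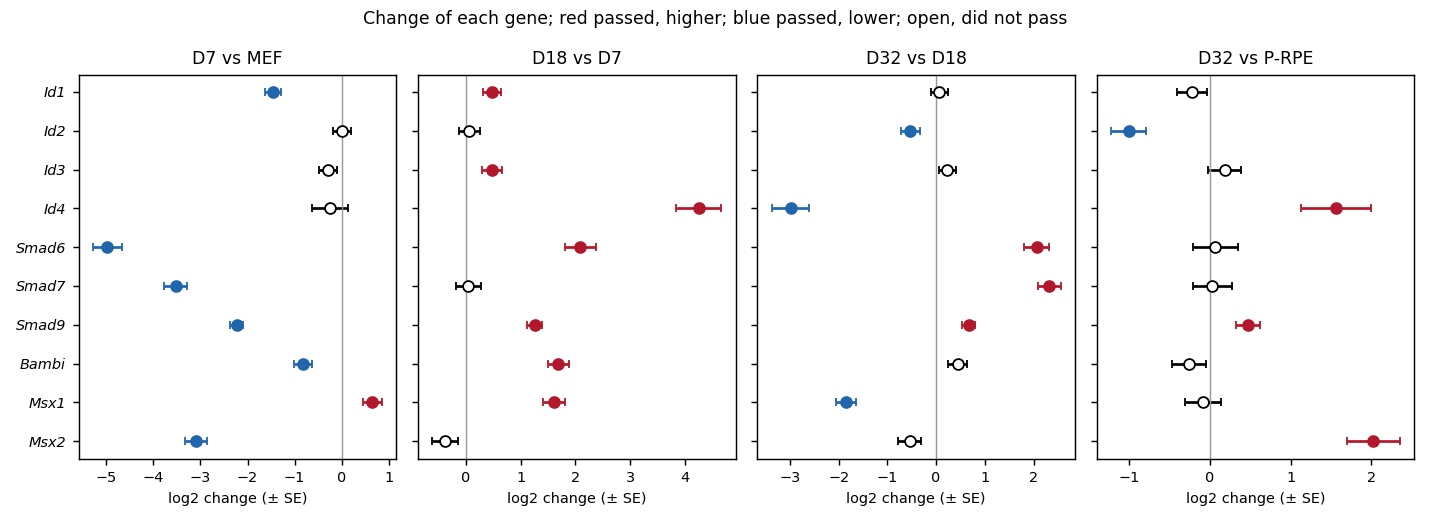
Log2 change (horizontal axis, bars are the SE) of each gene in D7 against MEF, D18 against D7, D32 against D18 and D32 against P-RPE. Red points passed the test as higher, blue points passed as lower, and open points did not pass; Smad6 stands at -4.98 in the first panel and Id4 at 4.24 in the second.

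The second comparison followed cells kept in the first medium to day 18. Without a listed change of medium, 7 of the 10 genes rose and 0 fell, while 56.6% of all genes tested were called, 29.2% higher and 27.4% lower. The median log2 change of the 10 was 0.87, beside 0 for all genes. The count of 0 lower by edgeR was also 0 at an unadjusted p under 0.05, by DESeq2 and by limma-voom, and with library totals alone 1 gene was called lower (Msx2, log2 change -0.59, adjusted p = 0.0443).

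Id4 changed most. It had 295, 154 and 239.5 CPM at D18, against 11.8, 18.4 and 6.05 CPM at D7. All D18 libraries stood far above the D7 libraries, with a mean 19.0-fold higher (log2 change 4.24, SE 0.41, adjusted p = 1.73e-06). The 5 astrocyte markers, led by Gfap, summed to 24999 to 37532 CPM at D18 against 1010 to 1360 CPM at D7, all 5 with counts in both groups, and their part in the Id4 result was not tested. Id4 shares its locus with A330033J07Rik and Gm49291 on the opposite strand, which had 38 to 78 and 6 to 18 counts in the D18 libraries. The strand setting of the counting is not given in the sources used here, and Id4 values are uncertain to that extent.

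Msx1 rose with it, to 18.23, 15.6 and 23.6 CPM at D18, against 7.01, 5.91 and 5.89 CPM at D7 (log2 change 1.61, SE 0.20, adjusted p = 6.79e-06). Bambi had 32.196, 25.002 and 21.2 CPM at D18, against 9.05, 7.95 and 7.32 CPM at D7 (log2 change 1.69, SE 0.20, adjusted p = 4.04e-06), and no D18 library reached down to the D7 range. Msx2 did not follow Msx1 and averaged 2.44 ± 0.483 CPM at D18 and 3.16 ± 0.498 CPM at D7 (SD, n = 3 each; adjusted p = 0.182).

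The inhibitory Smads parted at this step. Smad6 had 9.89, 11.7 and 12.5 CPM at D18, against 2.50, 3.54 and 1.98 CPM at D7 (log2 change 2.08, SE 0.28, adjusted p = 2.26e-05). Smad7 had 13.4, 18.7 and 9.80 CPM at D18, against 15.6, 11.5 and 13.4 CPM at D7, with overlapping libraries, and its log2 change was 0.05 (95% interval -0.44 to 0.53, adjusted p = 0.880). Smad9 rose to 11.2, 9.53 and 10.2 CPM at D18, against 4.05, 4.86 and 4.00 CPM at D7 (log2 change 1.26, SE 0.14, adjusted p = 2.12e-06). The difference between the Smad6 and Smad7 responses was not itself tested.

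Id1 and Id3 passed narrowly. Id1 had 72.3, 70.8 and 49.6 CPM at D18, against 44.8, 48.7 and 44.7 CPM at D7 (log2 change 0.48, SE 0.17, adjusted p = 0.0232). Id3 had 312, 360.4 and 231 CPM at D18, against 207, 259.9 and 185 CPM at D7 (log2 change 0.47, SE 0.18, adjusted p = 0.0388), and the lowest D18 library lay inside the D7 range. Both calls were lost when D7 replicate 1, D7 replicate 3, D18 replicate 1 or D18 replicate 2 was left out (adjusted p from 0.0666 to 0.0917 for Id1 and from 0.0869 to 0.170 for Id3) and with library totals alone (adjusted p = 0.159 for Id1 and 0.219 for Id3). The call of Id3 was also lost in the model of the 2 groups alone (adjusted p = 0.0513). D18 replicate 3 was the lowest D18 library for Id1, Id2, Id3, Smad7 and Bambi, and its fibroblast markers summed to 1610 CPM, beside 5968 and 6443 CPM in replicates 1 and 2. Without it, the log2 change at D18 against D7 was 0.64 for Id1, 0.63 for Id3, 0.25 for Smad7 and 1.82 for Bambi, with the call or its absence as in the full set. The part of the marker difference in these values was not tested. Id2 averaged 71.1 ± 22.9 CPM at D18 and 68.0 ± 11.7 CPM at D7 (SD, n = 3 each; adjusted p = 0.809).

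Set against the starting fibroblasts, D18 cells held 3 genes higher and 5 lower, where 70.2% of all genes tested were called, 37.4% higher and 32.7% lower. Id4 (log2 change 4.00), Msx1 (2.26) and Bambi (0.87) were higher at D18 than in MEF. Smad7 (-3.48), Msx2 (-3.47), Smad6 (-2.90), Id1 (-0.98) and Smad9 (-0.97) were lower, each with an adjusted p under the threshold, the weakest being Bambi at 0.000963. Smad6 at D18 was thus still 7.45-fold below its MEF mean, although 4.25-fold above its D7 mean. These 2 comparisons share the D18 libraries.

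The third comparison spanned the change of medium, from the last sampled day of the first medium to day 32 in the second, in which no BMP receptor inhibitor is listed. Smad6, Smad7 and Smad9 rose, Id4, Msx1 and Id2 fell, and 4 genes did not pass, while 56.0% of all genes tested were called, 29.9% higher and 26.1% lower. Smad7 had 84.9, 77.7 and 47.1 CPM at D32, against 13.4, 18.7 and 9.80 CPM at D18. Its mean was 5.01-fold higher, with no overlap (log2 change 2.32, SE 0.23, adjusted p = 1.13e-06). Smad6 had 57.5, 59.2 and 25.9 CPM at D32, against 9.89, 11.7 and 12.5 CPM at D18 (log2 change 2.06, SE 0.26, adjusted p = 1.29e-05). Smad9 had 17.7, 15.1 and 16.3 CPM at D32, against 11.2, 9.53 and 10.2 CPM at D18 (log2 change 0.67, SE 0.13, adjusted p = 0.000601).

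D32 replicate 3 was the lowest of the 3 for Smad6, Smad7, Id1, Id3 and Msx1. Its RPE markers summed to 4554 CPM, beside 8748 and 5928 CPM in replicates 1 and 2, and its endothelial markers to 170 CPM, beside 223 and 214 CPM. Leaving out any 1 of the 6 libraries kept the log2 change of Smad6 between 1.88 and 2.36 and that of Smad7 between 2.12 and 2.56. Endothelial cells express Smad6 and Smad7 strongly, and the 8 endothelial markers summed to 170 to 223 CPM at D32 (8 of 8 with counts) against 1.68 to 7.42 CPM at D18 (7 of 8, Cldn5 at 0). Their part in the rise of the inhibitory Smads was not tested. In MEF, where Smad6 and Smad7 were highest, these markers summed to 54.7 to 58.7 CPM, mostly Kdr, with Tie1 at 0.

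Of the genes that fell, Id4 had 42.0, 17.4 and 27.4 CPM at D32, against 295, 154 and 239.5 CPM at D18, a mean 7.93-fold lower (log2 change -2.99, SE 0.39, adjusted p = 2.42e-05). The astrocyte markers summed to 1988 to 2186 CPM at D32 against 24999 to 37532 CPM at D18, and their part was again not tested. Msx1 returned to 5.41, 5.46 and 5.01 CPM at D32, against 18.23, 15.6 and 23.6 CPM at D18 (log2 change -1.85, SE 0.20, adjusted p = 1.89e-06). Id2 had 58.6, 39.4 and 49.7 CPM at D32, against 96.5, 64.8 and 52.1 CPM at D18, with overlapping libraries (log2 change -0.53, SE 0.20, adjusted p = 0.0323). That call was lost without D18 replicate 1 (adjusted p = 0.227), D32 replicate 2 (0.135) or D32 replicate 3 (0.0698). It was also lost with library totals alone (adjusted p = 0.0737), without a filter (0.0536) and in the model of the 2 groups alone (0.0668).

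Id1 and Id3 did not move detectably from D18 to D32. Id1 averaged 67.3 ± 15.5 CPM at D32 and 64.2 ± 12.7 CPM at D18, a log2 change of 0.07 (95% interval -0.29 to 0.42). Id3 averaged 353 ± 62.4 CPM at D32 and 301 ± 65.4 CPM at D18 (SD, n = 3 each), a log2 change of 0.23 (95% interval -0.16 to 0.62). Bambi had 28.8, 44.2 and 33.7 CPM at D32, against 32.196, 25.002 and 21.2 CPM at D18 (adjusted p = 0.0596). It passed without D18 replicate 1 (adjusted p = 0.0194) or D32 replicate 1 (adjusted p = 0.0259), with library totals alone (adjusted p = 0.0176) and without a filter (adjusted p = 0.0464). Msx2 averaged 1.68 ± 0.149 CPM at D32 and 2.44 ± 0.483 CPM at D18 (SD, n = 3 each; adjusted p = 0.0672), and it passed without D18 replicate 2 (adjusted p = 0.0201), with median-ratio size factors (adjusted p = 0.0398) and by DESeq2 (adjusted p = 0.0118).

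The converted cells were then set against the tissue they are meant to resemble. Of the 10 genes, 3 were higher and 1 lower at D32 than in P-RPE, where 53.9% of all genes tested were called, 27.1% higher and 26.8% lower. Smad6 had 57.5, 59.2 and 25.9 CPM at D32, against 40.9 and 50.007 CPM in P-RPE, and Smad7 had 84.9, 77.7 and 47.1 CPM at D32, against 65.7 and 71.4 CPM in P-RPE. For both, the D32 range enclosed the P-RPE range. The log2 change was 0.06 for Smad6 (95% interval -0.54 to 0.66) and 0.03 for Smad7 (95% interval -0.49 to 0.55), and both signs turned with median-ratio size factors (-0.01 and -0.05). Differences of up to about these bounds remain compatible with the data. Id1 (-0.23, interval -0.62 to 0.17), Id3 (0.18, interval -0.25 to 0.62), Bambi (-0.27, interval -0.72 to 0.18) and Msx1 (-0.08, interval -0.56 to 0.39) did not pass either.

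Id2 was the 1 gene lower at D32, with 58.6, 39.4 and 49.7 CPM, against 102 and 95.7 CPM in P-RPE. The groups did not overlap, and the mean was 2.01-fold lower (log2 change -1.01, SE 0.22, adjusted p = 0.00119). Msx2 was higher, with 1.83, 1.53 and 1.67 CPM at D32, against 0.224 and 0.590 CPM in P-RPE (log2 change 2.03, SE 0.33, adjusted p = 0.000107), both low levels. Id4 had 42.0, 17.4 and 27.4 CPM at D32, against 10.6 and 9.0045 CPM in P-RPE (log2 change 1.56, SE 0.44, adjusted p = 0.00890). The astrocyte markers summed to 1988 to 2186 CPM at D32 against 285 to 607 CPM in P-RPE, all 5 with counts in both groups. Gfap, Aqp4 and Slc1a3 averaged higher at D32 (1539, 198 and 93.7 CPM against 130, 3.86 and 35.8 CPM). S100b averaged lower at D32 (20.4 against 97.3 CPM), and the Aldoc libraries overlapped (197 to 220 against 105 to 252 CPM). The part of these markers in the Id4 difference was not tested. Smad9 had 17.7, 15.1 and 16.3 CPM at D32, against 12.6 and 11.1 CPM in P-RPE (log2 change 0.47, SE 0.15, adjusted p = 0.0163). Without P-RPE replicate 2 the calls of Id4 (adjusted p = 0.0802) and Smad9 (adjusted p = 0.146) were lost.

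Both end points were also set against the fibroblasts; these comparisons share the MEF libraries. At D32, 2 of the 10 genes were higher and 4 lower than in MEF (60.2% of all genes called, 35.6% higher and 24.6% lower), and in P-RPE 2 were higher and 5 lower than in MEF (70.7% called, 39.3% higher and 31.4% lower). The median of all genes tested was itself 0.26 at D32 and 0.18 in P-RPE on the log2 scale. Bambi was higher in both, by 1.31 at D32 and 1.58 in P-RPE. Msx2 was lower in both, with a log2 change of -4.01 at D32 and -6.03 in P-RPE, where its mean was 66.3-fold below that of MEF. Smad7 was lower in both, with a log2 change of -1.15 at D32 and -1.18 in P-RPE. Smad6 had -0.83 at D32 and -0.90 in P-RPE, and Id1 had -0.91 at D32 and -0.68 in P-RPE. In P-RPE the calls of Smad6 and Id1 were lost without P-RPE replicate 1 (adjusted p = 0.0986 and 0.0645). Smad9 was lower in P-RPE (-0.77, adjusted p = 0.000343), and its value of -0.30 at D32 did not pass (adjusted p = 0.0623). That D32 value passed with median-ratio size factors (adjusted p = 0.0274), DESeq2 (0.00833), limma-voom (0.0336) and the model of the 2 groups alone (0.0256). Id2 at D32 (log2 change -0.45, adjusted p = 0.0586) passed as lower under 5 of the alternative settings (adjusted p from 0.0107 to 0.0493) and without D32 replicate 1 (adjusted p = 0.0306). Id3 at D32 (log2 change 0.41, adjusted p = 0.0643) passed as higher with library totals alone (0.00712) and a filter at a mean of 5 CPM (0.0342). It also passed with replicate number as a block (adjusted p = 0.00961), in the model of the 2 groups alone (0.0327) and without D32 replicate 3 (0.0374).

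Of the calls against MEF, those of Id4 at D32 and Id2 in P-RPE were close to the threshold. With 1 library left out, the log2 change of Id4 lay between 0.64 and 1.27 and that of Id2 between 0.51 and 0.61. Id4 was higher at D32 (log2 change 1.01, adjusted p = 0.0319), a call lost without any 1 of MEF replicates 1, 2 and 3 or without D32 replicate 1 or 3 (adjusted p from 0.0548 to 0.174), without a filter (0.137) or with limma-voom (0.0670). Id2 was higher in P-RPE (log2 change 0.56, adjusted p = 0.0324), a call lost when any 1 of the 5 libraries was left out (adjusted p from 0.0565 to 0.127) and without a filter (0.163).

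In order of group means, Smad6, Smad7 and Smad9 shared 1 sequence: MEF, D32, P-RPE, D18 and D7 from high to low. For Smad6 and Smad7, D32 and P-RPE overlapped, and for Smad7 D18 and D7 overlapped too. For Smad9, P-RPE and D18 overlapped, and D32 against MEF did not pass (adjusted p = 0.0623). Id1 ran MEF, P-RPE, D32, D18 and D7, with overlap among P-RPE, D32 and D18. Id3 had the narrowest range, 1.63-fold between its highest mean (D32) and its lowest (D7), and every neighbouring pair of groups overlapped. Bambi was highest in P-RPE and lowest at D7, a 5.28-fold range, with overlap between P-RPE and D32 and between D32 and D18. Msx2 fell in the order MEF, D7, D18, D32 and P-RPE, D7 and D18 overlapping. The largest range of the 10 belonged to Msx2 at 66.3-fold, followed by Smad6 at 31.7-fold and Id4 at 23.4-fold. The Msx2 value rests on 8 and 22 counts in the P-RPE libraries, and its log2 change in P-RPE against MEF was -5.51 without P-RPE replicate 1 and -6.89 without P-RPE replicate 2.

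To compare levels between genes, CPM was divided by the length of the merged exons in kilobases. In MEF, Id3 was highest per kilobase at 148 CPM, followed by Id1 at 109, Smad7 at 34.4, Id2 at 27.7 and Smad6 at 26.4, and Msx1 was lowest at 1.29. The 4 Id genes together gave 192 ± 29.8 CPM per kilobase at D7 and 289 ± 15.2 in MEF (SD, n = 3 each), and their sum was 312 ± 50.6 CPM per kilobase at D18 and 283 ± 43.2 at D32 (SD, n = 3 each). In P-RPE it was 285 ± 48.3 CPM per kilobase (SD, n = 2). Id3 made up the largest share of this sum in every group, between 51.4% in MEF and 69.6% at D32. Id1 gave 20.9% at D7 against 37.7% in MEF, and remained between 17.7% and 23.9% in the later groups and P-RPE. Id4 gave 19.4 ± 6.40% of the sum at D18 (SD, n = 3) and between 0.916% and 2.72% in the other groups.

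**Figure D3:**
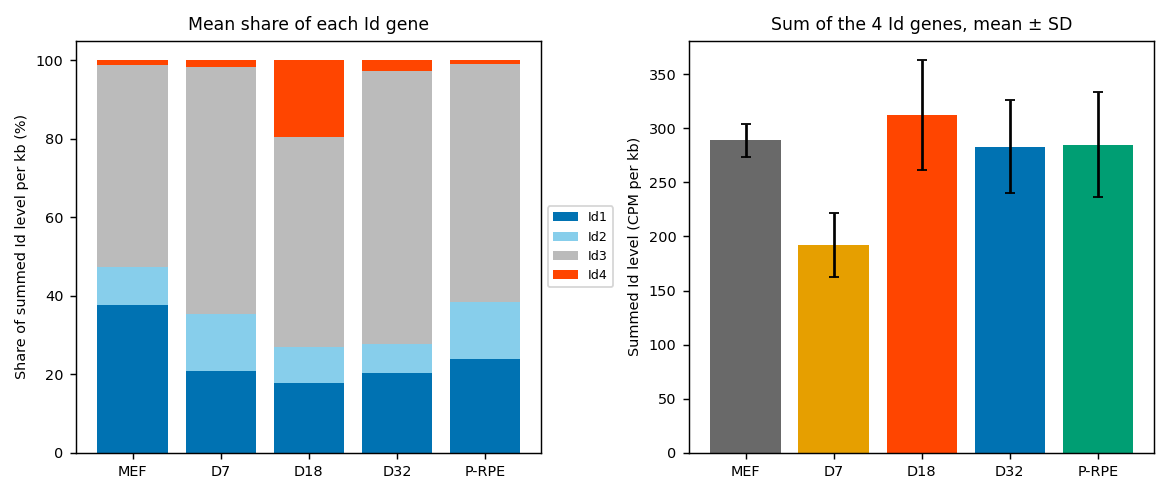
Left, mean share of Id1, Id2, Id3 and Id4 in the summed Id level, in percent of CPM per kilobase of exon, for MEF, D7, D18, D32 and P-RPE. Right, the mean summed level with bars from 0 and SD error bars; the sum is lowest at D7 (192) and the Id4 share is largest at D18 (19.4%).

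Across the 14 libraries, which share their groups and so are not independent points, Pearson's r of log2 CPM (prior count 2) was 0.95 between Smad6 and Smad9, 0.91 between Smad6 and Smad7 and 0.84 between Id1 and either Smad6 or Smad7. For Id4 and Msx1 it was 0.86, and for Smad7 and Msx1 it was -0.73. The Id genes did not follow each other closely, with r between -0.14 (Id1 and Id4) and 0.37 (Id1 and Id3). Of 12196 genes with at least 10 CPM in their highest group, those most like Id1 were Flii, Rnd1, Dlc1, Ppp1r11 and Plpp1, with r between 0.93 and 0.94. Those most like Smad6 were Zbtb38 (0.98), Lmod1, Cisd3, Gskip and Plekhg3 (0.96). Lmod1, a smooth muscle actin-binding protein, averaged 0.232 CPM at D7 and 91.0 CPM in MEF.

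The genes of the pathway upstream of these readouts were followed as lists, each counted over its tested genes. Of all genes tested, 55.0% were called at D7 against MEF, 56.6% at D18 against D7, 56.0% at D32 against D18 and 53.9% at D32 against P-RPE, and the list shares below keep this order of comparisons. The median log2 changes of all genes were 0.04, 0, 0.07 and 0.02 in the same order. At D7, 3 of 10 BMP ligands rose and 7 fell against MEF. Bmp7 averaged 189 ± 12.17 CPM at D7 and 9.51 ± 0.402 CPM in MEF (SD, n = 3 each; log2 change 4.32, adjusted p = 2.11e-11), and Bmp2 averaged 98.1 ± 12.6 CPM at D7 and 7.81 ± 0.279 CPM in MEF. Smad6 and Id1 had their lowest means at D7, and no link to the ligands was tested. Among the ligands that fell, Bmp8b and Bmp8a changed most (log2 change -5.27 and -4.64). They averaged 0.0817 and 0.232 CPM at D7 and 3.26 and 5.80 CPM in MEF. With a mean of at least 5 CPM, which tests fewer genes, 3 ligands fell. At D18, 5 fell and 1 rose against D7 (2 rose without D7 replicate 1), Bmp7 averaging 8.97 ± 1.96 CPM and Bmp2 3.46 ± 1.53 CPM at D18, while Bmp6 rose (log2 change 3.36). At D32, 5 rose and 1 fell against D18. Bmp4 averaged 87.6 ± 14.5 CPM at D32 and 4.71 ± 0.788 CPM at D18 (SD, n = 3 each; log2 change 4.22, adjusted p = 1.05e-10). The 1 fall, of Bmp6 (adjusted p = 0.0473), was lost without D18 replicate 1 (adjusted p = 0.420) and without any 1 of the 3 D32 libraries (adjusted p from 0.0561 to 0.171). For the ligands, the shares called in the 4 comparisons were 100%, 60.0%, 60.0% and 80.0%, and the median log2 changes were -1.71, -1.38, 1.37 and -0.88. The shares at D18 and at D32 against D18 were thus close to those of all genes. Against P-RPE, 3 ligands were higher at D32 and 5 lower, among them Bmp6 (log2 change -3.18) and Bmp7 (-2.66).

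Receptors and co-receptors came next. Of 11 genes, 3 rose and 4 fell at D7 against MEF, 1 rose and 3 fell at D18 against D7, 3 rose and 4 fell at D32 against D18, and 3 were higher and 2 lower at D32 than in P-RPE. For these genes, the shares called in the 4 comparisons were 63.6%, 36.4%, 63.6% and 45.5%, and the median log2 changes were 0.01, -0.06, 0.26 and 0.07. The share at D18 was below that of all genes. The 2 lower than in P-RPE numbered 1 without D32 replicate 1, D32 replicate 3 or P-RPE replicate 2. Rgma, a BMP co-receptor, averaged 400.1 ± 41.8 CPM at D7 and 27.7 ± 0.665 CPM in MEF (SD, n = 3 each; log2 change 3.85). Bmpr1b, a type I receptor, rose at D18 (log2 change 1.35 against D7) and fell at D32 (-2.36 against D18). Eng, a co-receptor abundant in endothelium, averaged 270.2 ± 77.0 CPM at D32 and 8.57 ± 2.63 CPM at D18 (SD, n = 3 each; log2 change 4.98, adjusted p = 2.76e-09). Acvrl1, another receptor of endothelial cells, rose as well (log2 change 1.71). The endothelial marker sums given above, 170 to 223 CPM at D32 against 1.68 to 7.42 CPM at D18, moved with both genes there. In P-RPE the sums were higher, at 644 to 753 CPM. Acvrl1 averaged 111 CPM in P-RPE and 59.5 CPM at D32, while Eng averaged 257 and 270 CPM. In MEF the sums were 54.7 to 58.7 CPM, mostly Kdr, and Eng and Acvrl1 averaged 80.0 and 32.4 CPM. The part of these markers was not tested. Without MEF replicate 1 the falls at D7 numbered 2, without D18 replicate 3 the rises at D18 numbered 2, and without D32 replicate 2 the rises at D32 numbered 5.

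The 5 Smads that carry the BMP and TGF-beta signals were counted next. At D7, 2 rose and 2 fell against MEF, and the falls numbered 0 with library totals alone. Smad5 rose (log2 change 0.85), and Smad1 rose by 0.32 (adjusted p = 0.0102), a call lost without MEF replicate 3 (adjusted p = 0.0608) or D7 replicate 1 (adjusted p = 0.0717). Smad1 averaged 90.5 ± 3.84 CPM at D18 and 50.1 ± 2.30 CPM at D7 (SD, n = 3 each; log2 change 0.85, adjusted p = 2.79e-06), the 1 gene of this list that rose at D18, where 2 fell. At D32, Smad2 was among 2 that rose against D18 and Smad1 among 2 that fell (log2 change 0.62 and -1.14). All 5 were higher at D32 than in P-RPE, by 1.19 for Smad1 and 0.66 for Smad5, and 3 were without P-RPE replicate 2. For these Smads, the shares called in the 4 comparisons were 80.0%, 60.0%, 80.0% and 100%, and the median log2 changes were -0.18, -0.02, 0.14 and 0.40. At D32 against P-RPE none was lower by edgeR, at an unadjusted p under 0.05, by DESeq2 or by limma-voom.

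Secreted BMP antagonists bind the ligands outside the cell. In this list, the shares called in the 4 comparisons were 78.6%, 64.3%, 71.4% and 92.9%, and the median log2 changes were -0.87, 0.81, 0.23 and 1.44. Of 14, 4 rose and 7 fell at D7 against MEF, where Fst fell (log2 change -3.91) and Chrdl1 rose (4.16). Without MEF replicate 1 or without D7 replicate 1 the rises numbered 2. At D18, 7 rose and 2 fell against D7, with Nbl1 averaging 617 ± 54.0 CPM at D18 and 66.5 ± 7.49 CPM at D7 (SD, n = 3 each), and Grem1 lower (log2 change -5.19). The falls numbered 1 without D18 replicate 1 or without D18 replicate 3. At D32, 6 rose and 4 fell against D18. Nog, which encodes noggin, averaged 66.2 ± 29.7 CPM at D32 and 4.80 ± 1.17 CPM at D18 (SD, n = 3 each; log2 change 3.79, adjusted p = 1.44e-06), and Sostdc1 rose too (log2 change 5.91). Against P-RPE, 8 were higher at D32, led by Grem1 (6.53), and 5 lower, with Sostdc1 at -2.04.

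**Figure D4:**
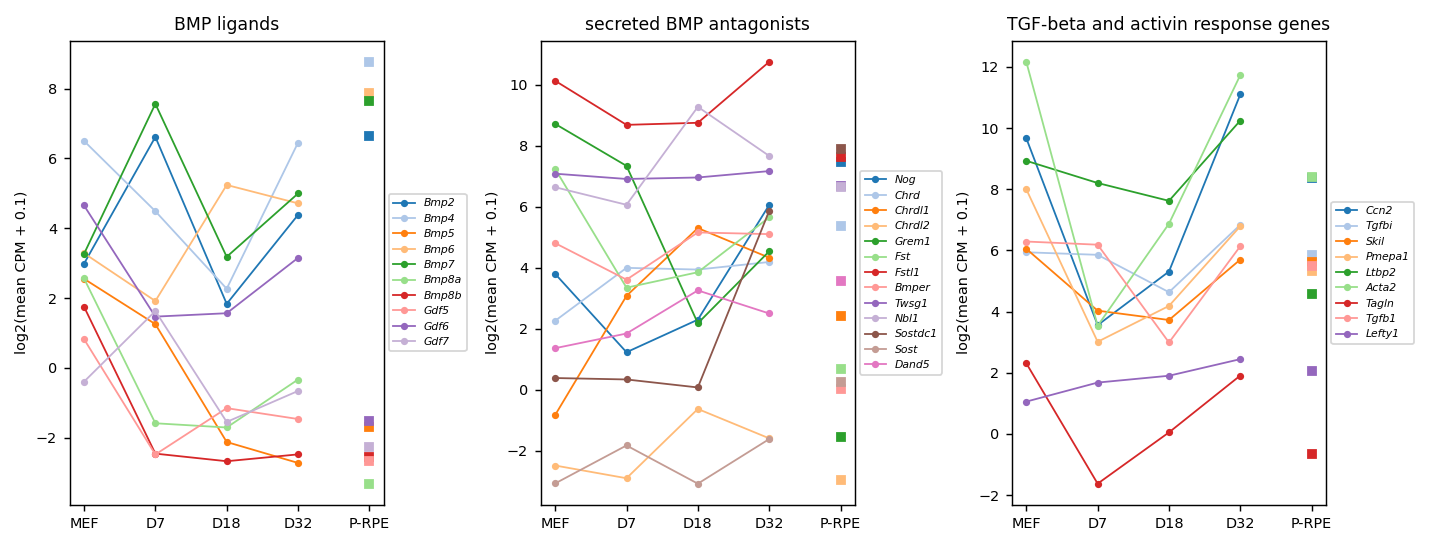
Log2 of mean CPM + 0.1 over MEF, D7, D18 and D32 (lines), with P-RPE as squares, for genes of the BMP ligand, secreted BMP antagonist, and TGF-beta and activin response lists. Some members of each list are not drawn. Bmp2 and Bmp7 peak at D7 and are low at D18, Nog and Sostdc1 are high at D32, and Acta2 is lower at D7 and D18 than in MEF and at D32.

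Of 9 other intracellular brakes on Smad signalling, 2 rose and 6 fell at D7 against MEF, 2 rose and 1 fell at D18 against D7, 3 rose and 3 fell at D32 against D18, and 3 were higher and 3 lower at D32 than in P-RPE. Among these brakes, the shares called in the 4 comparisons were 88.9%, 33.3%, 66.7% and 66.7%, and the median log2 changes were -0.60, 0.08, 0.12 and 0.09. Skil, a corepressor induced by TGF-beta, and Smurf2, a ubiquitin ligase that partners Smad7, both fell at D7 and rose at D32. Skil had a log2 change of -2.03 at D7 against MEF and 1.98 at D32 against D18, and Smurf2 had -1.60 at D7 and 0.73 at D32. Without D18 replicate 2 the falls at D18 numbered 2.

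Of 14 other genes known to respond to BMP, 2 rose and 8 fell at D7 against MEF, and 2 rose and 7 fell at D18 against D7. Dlx5 (log2 change -4.93) and Dlx2 (-3.80), homeobox genes of skeletal and forebrain development, fell at D7. Hey1, which Notch signalling also induces, rose at D7 (4.54) and again at D18 (1.41), and Tbx3 fell at D18 (-3.26). At D32, 8 rose and 2 fell against D18. Alpl, the alkaline phosphatase of bone and other tissues, averaged 138 ± 46.2 CPM at D32 and 8.69 ± 4.61 CPM at D18 (SD, n = 3 each; log2 change 3.98, adjusted p = 6.17e-07). Against P-RPE, 5 were higher at D32, among them Gata3 (4.39), and 3 lower, among them Tbx2 (-1.20). Across this list, the shares called in the 4 comparisons were 71.4%, 64.3%, 71.4% and 57.1%, and the median log2 changes were -1.25, -1.05, 1.23 and 0.37.

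The list of bHLH genes whose products Id proteins can bind held Tcf3, Tcf4, Tcf12 and Twist1 beside genes of nerve and muscle cells. Of 11, 6 rose and 2 fell at D7 against MEF, and Olig2, an oligodendrocyte and motor neuron factor, averaged 138 ± 14.6 CPM at D7 and 0.0761 ± 0.0300 CPM in MEF (SD, n = 3 each; log2 change 10.76, adjusted p = 1.92e-09). At D18, 9 of 11 fell and 0 rose against D7 by edgeR, and 0 rose at an unadjusted p under 0.05, by DESeq2 or by limma-voom. At D32, 4 fell and 0 rose against D18, Olig2 among those that fell (log2 change -5.49); 1 rose at an unadjusted p under 0.05 and by DESeq2, and 0 by limma-voom. Without D18 replicate 1 edgeR called 1 higher, and without D32 replicate 1 it called 2. At D32, 4 were higher and 1 lower than in P-RPE. For the bHLH genes, the shares called in the 4 comparisons were 72.7%, 81.8%, 36.4% and 45.5%, and the median log2 changes were 1.75, -1.30, -0.08 and 0.61. Of 7 dorsal neural tube genes, a region where BMP induces Msx1 and Msx2, 5 rose and 0 fell at D7 against MEF by edgeR, Zic2 among them (log2 change 3.57). At D18, 2 rose and 1 fell against D7, Pax3 rising by 0.67. At D32, 1 rose and 5 fell against D18, and 2 were higher and 0 lower than in P-RPE. Both counts of 0 were also 0 at an unadjusted p under 0.05, by DESeq2 and by limma-voom. The 5 falls at D32 numbered 3 without D18 replicate 3, D32 replicate 2 or D32 replicate 3, and the 1 rise numbered 2 without D32 replicate 1. The 2 higher than in P-RPE numbered 0 without P-RPE replicate 1 and 4 without P-RPE replicate 2. For the dorsal genes, the shares called in the 4 comparisons were 71.4%, 42.9%, 85.7% and 28.6%, and the median log2 changes were 2.46, -0.18, -1.99 and 1.24.

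Genes that respond to TGF-beta and activin were followed because A 83-01 was in the first medium and activin A in the second. Of 11, 7 fell and 0 rose at D7 against MEF by edgeR. With library totals alone, replicate number as a block or the model of the 2 groups alone, 1 rose in place of 0. This 0 and those named next for the same list were also 0 at an unadjusted p under 0.05, by DESeq2 and by limma-voom. Acta2, smooth muscle actin, averaged 11.5 ± 0.497 CPM at D7 and 4592 ± 128 CPM in MEF (SD, n = 3 each; log2 change -8.64, adjusted p = 3.80e-12). At D18, 4 rose and 3 fell against D7, with Acta2 higher (3.35) and Tgfb1 lower (-3.21). At D32, 10 of 11 rose and 0 fell against D18, with Ccn2 higher (log2 change 5.79). Against P-RPE, 9 were higher at D32 and 0 lower, with Ltbp2 at 5.69, while Smad7, which TGF-beta also induces, was at 0.03. For this response list, the shares called in the 4 comparisons were 63.6%, 63.6%, 90.9% and 81.8%, and the median log2 changes were -2.03, 0.23, 2.63 and 2.69. The 6 fibroblast markers, all with counts in every group, summed to 5199 to 5768 CPM at D7 and 10530.3 to 10976 CPM in MEF, to 6675 to 10531 CPM at D32 and 1610 to 6443 CPM at D18, and to 597 to 799 CPM in P-RPE. Their sums moved in the direction of the called genes at D7 against MEF, at D32 against D18 and at D32 against P-RPE. In the last comparison 27.1% of all genes were higher at D32. Thy1 and Twist1 went against the sum at D7, averaging 592 and 86.5 CPM against 330 and 58.5 CPM in MEF. Nor did they rise at D32, averaging 216 and 33.2 CPM against 325 and 35.1 CPM at D18. Col1a1, Col1a2, Pdgfra and Prrx1 averaged in the direction of the sum in both comparisons. The part of these markers in the list counts was not tested.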

How the data were processed

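RNA was measured by paired-end sequencing of 14 mouse libraries. Per the labels, the deposited table holds raw counts for each gene symbol, and every value was a whole number. The submitters' processing notes list featureCounts, Subread, STAR 2.7.11a, edgeR 4.0.16 and limma 3.58.1 and the builds mm10, GRCm38 and GRCh38, without roles; the strand setting and annotation are not given in the sources used here. 10 columns of human libraries were not used here.

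Counts were fitted with edgeR 4.0.16 in R 4.3.3: filterByExpr by group, TMM scaling, and a robust quasi-likelihood model of 5 group means over 14 libraries with 7 contrasts and Benjamini-Hochberg adjustment over 20562 genes, called under 0.05. The SE is the log2 change over the square root of F, and 95% intervals use the model's degrees of freedom. The model was run for D7 against MEF on counts simulated from MEF means, with a set of genes changed at D7 and no other group difference. In the real data 55.0% of genes were called in that comparison, so the run checks the code and not the calls reported here. Lengths and coordinates came from GENCODE vM21, which matched 53292 of 55291 symbols. Intervals and totals cover counting error and the spread between these libraries only.

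The 10 genes, the pathway lists and the marker lists were chosen with earlier results of these data known. Of each list, 2 called genes per direction, those that changed most, and the most abundant gene without a call could be named. Some list genes are counted and not reported by name here. The replicate numbers of different groups were checked for pairing: correlations of same-numbered deviations lay between -0.0967 and 0.0953, so the numbers were not used as pairs. Alternatives were RLE (median-ratio) size factors, library totals alone, no filter, a mean of at least 5 CPM, a replicate block, DESeq2 1.42.0, limma-voom, models of 2 groups, and leaving out each library.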

Additional observations from a re-analysis of the deposited data

How the results depend on the processing

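Of 960 recomputed log2 changes of the 10 genes (70 tests), 858 kept their direction and side of the threshold, 36 lost a call, 28 gained one and 38 turned sign, all 38 of genes that had not passed. Of 384 counts, 22 moved by over 1.5 times. The cause was not tested in any of these.

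Counts of the 10 genes moved as follows. Rises at D7 against MEF numbered 0 to 1 when 1 library was left out. Falls at D18 against D7 numbered 1 with library totals alone. Rises at D32 against MEF numbered 4 with library totals alone, 1 without a filter, 1 with limma-voom and 1 to 2 with 1 library left out. Genes higher at D32 than in P-RPE numbered 1 to 3, and those higher and lower in P-RPE than in MEF 1 to 2 and 3 to 5, with 1 library left out; without a filter 1 was higher in P-RPE than in MEF. Of all genes, 3512 fell at D7 against MEF with library totals alone, in place of 5450. With a mean of at least 5 CPM, which tests fewer genes, 4959 rose at D18 and 4610 at D32 against MEF, 3958 at D32 against D18 and 4958 in P-RPE against MEF.

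Turned signs were small. At D7 against MEF, Id2 became -0.0326 with RLE factors and with DESeq2 and -0.0219 without a filter, and Id3 became 0.0279 and Id4 0.0724 with library totals alone. With 1 library left out, Id2 lay between -0.156 and 0.0879 and Id4 between -0.721 and 0.0421. At D18 against D7, library totals alone gave Id2 -0.163 and Smad7 -0.164, and leaving out 1 library gave -0.217 to 0.247 and -0.228 to 0.251. At D18 against MEF, leaving out 1 library gave Id2 -0.204 to 0.2596 and Id3 -0.0126 to 0.3397. At D32 against D18, Id1 became -0.00474 with RLE factors and -0.00472 with DESeq2 (-0.089996 to 0.249955 with 1 library left out). At D32 against P-RPE, RLE factors and DESeq2 gave -0.0107 for Smad6 and -0.0467 for Smad7, limma-voom gave -0.0232 and -0.0150, and leaving out 1 library gave -0.125 to 0.3596 and -0.135 to 0.247. There Msx1 became 0.139888 with library totals alone (-0.385 to 0.297 with 1 library left out), and leaving out 1 library gave Id3 -0.0366 to 0.441 and Bambi -0.537 to 0.0637. Eng became -0.000817 with RLE factors and -0.000789 with DESeq2 (-0.179 to 0.242). In P-RPE against MEF, Id3 lay between -0.0285 and 0.448 with 1 library left out.

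Library totals alone shifted the median of all genes by 0.32 at D7 against MEF, -0.19 at D18 against D7, 0.20 at D32 against MEF and 0.23 at D32 against P-RPE, and the share of calls that were higher became 69.7%, 40.7%, 69.1% and 62.1%, in place of 51.8%, 51.6%, 59.2% and 50.2%. With the replicate block, 7 of the 10 genes fell at D7 against MEF (Id3 added, adjusted p = 0.0337), and 3 rose and 5 fell at D32 against MEF. The alternatives for the pathway lists were added after seeing the data: of 1728 list counts 122 moved by over 1.5 times, and of 896 log2 changes of named list genes 881 kept their call, 11 lost it and 4 turned sign.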
